A study of Mus musculus with 9 samples.

Results

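The genes described here are 34 mouse genes of cholesterol and fatty acid synthesis, picked by name from a table of 27179 gene entries. They comprise 7 enzymes of the mevalonate segment, 11 enzymes that turn farnesyl diphosphate into cholesterol, 5 genes of the SREBP control system, the sterol carrier Stard4, 8 fatty acid enzymes and 2 sterol exporters. All 34 passed the filter on low counts that left 12004 genes for testing. The cells were AML246, an acute myeloid leukaemia line of C57BL/6 origin kept in culture with the growth factor IL3. Every group lacked p53 and carried the shPU.1 hairpin, whose target PU.1 (gene Spi1) is a transcription factor of the myeloid lineage. The doxycycline group had 14 days of doxycycline and was sorted as GFPoff. The washed group had 14 days of doxycycline, then a wash and 14 days without it, and was sorted as GFPhigh. The untreated group had no doxycycline and was likewise sorted as GFPhigh. Each group held 3 libraries, 1 from each of the single-cell clones 1, 2 and 4 of this line, so the tests weigh differences against the spread among 3 clones of 1 leukaemia in culture. Doxycycline, the GFP gate and the state of the hairpin change together and cannot be told apart. Values listed for a group are for clones 1, 2 and 4 in that order.

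Library totals ran from 7408118 to 9803258 counts. Spi1 had 197, 191 and 156 CPM (counts scaled to library size) in doxycycline libraries, 52.0, 40.6 and 23.9 CPM in washed libraries and 48.1, 46.6 and 23.7 CPM in untreated libraries, highest in the 3 doxycycline libraries. The markers Col1a2, Cd4, Ncr1, Ttr and Cyp7a1 of stroma, lymphocytes and liver were at 0 in all 9 libraries. Others had a few counts, and per library the lymphocyte markers summed to 0.0920 to 0.865 CPM and the liver markers to 0 to 0.858 CPM. Markers of red cells summed to 0.971 to 4.76 CPM with doxycycline, 4.23 to 7.23 CPM washed and 5.81 to 8.25 CPM untreated. Of these, Hba-a1 and Klf1 were lower with doxycycline than untreated in all 3 clones. The leukocyte gene Ptprc was at 42.2, 45.1 and 28.0 CPM in doxycycline libraries, 0.644, 0.735 and 0.489 CPM in washed libraries and 2.02, 1.64 and 0.988 CPM in untreated libraries. Of 6 markers of mature neutrophils, 5 were higher in doxycycline than in untreated libraries in all 3 clones. The 6 markers together summed to 556 to 2378 CPM with doxycycline, 33.0 to 64.8 CPM after washing and 19.0 to 94.5 CPM without treatment. The 7 markers of monocytes and macrophages, of which Ms4a7 was at 0 throughout, summed to 1192 to 5332 CPM with doxycycline. Their sum was 1791 to 2222 CPM after washing and 1741 to 2277 CPM without treatment. Ly6c2 made most of each sum. It had 1160, 5133 and 2496 CPM with doxycycline, 1784, 2130 and 1815 CPM washed and 2219, 2118 and 1705 CPM untreated. With doxycycline Csf1r was lower in all 3 clones, Cd68 and Fcgr1 were higher in all 3, and Ly6c2 and Adgre1 were mixed. Mrc1 stayed at 0.371 CPM or less. The 7 markers of stroma and epithelium summed to 131 to 173 CPM with doxycycline, 89.0 to 172 CPM after washing and 140 to 161 CPM without treatment, of which Pdgfrb made 86.5 to 168 CPM in every library. Of these 7, Epcam, Krt18 and Col1a1 were higher with doxycycline than untreated in all 3 clones. Pdgfrb was lower in all 3, at 112, 94.5 and 122 CPM with doxycycline, against 136, 148 and 157 CPM untreated. Epcam, an adhesion molecule of epithelia, had 15.9, 72.8 and 31.1 CPM in doxycycline libraries, 1.75, 4.29 and 2.81 CPM in washed libraries and 2.02, 4.41 and 1.98 CPM in untreated libraries, a log2 fold change with doxycycline of 3.81 ± 0.63 and an adjusted p of 0.00763 by edgeR. Krt18 stayed at 4.63 CPM or less and Col1a1 at 0.245 CPM or less. The part of these lists in the lipid results was not tested, and in bulk RNA fewer cells of a type and less RNA per cell cannot be told apart. Untreated clone 1 stood apart in that a single entry without a symbol held 22.0% of its counts, against 0.153% to 1.64% in the other libraries. Washed clone 1 stood apart in the granule enzyme Mpo, at 1720 CPM, against 65.1 and 50.0 CPM in the other washed clones. Mpo had 27.7, 1.06 and 0.872 CPM with doxycycline, against 82.7, 50.5 and 80.0 CPM untreated. It was lower with doxycycline and higher again after washing in all 3 clones. Of the other myeloid and leukocyte markers, Ptprc, Spi1, Itgam, Cebpe and Fcer1g were higher with doxycycline in all 3 clones, and Cebpa was mixed. Genes of the mitochondrial genome held 2.66% and 3.28% of the counts in doxycycline and washed clone 1, against 7.52% to 22.0% in the other libraries.

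Cholesterol is built from acetyl-CoA through mevalonate, isoprenoid diphosphates, squalene and lanosterol. The transcription factors SREBP1 (Srebf1) and SREBP2 (Srebf2) switch on the enzymes of this route and of fatty acid synthesis. When sterols are plentiful, Insig proteins hold the SREBP escort Scap in the endoplasmic reticulum. When sterols run low, Scap carries SREBP to the Golgi, where proteases free its active part. Surplus sterol leaves cells through Abca1 and Abcg1, which liver X receptors switch on, and dividing leukaemia cells need both sterols and fatty acids for membranes.

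SREBP binds short motifs close to the start of its target genes, often beside sites for the factors NF-Y and Sp1. Promoters, taken from 250 bases before to 50 bases after the transcription start, are given for Hsd17b7, Sc5d, Tm7sf2 and Elovl6 and for Hmgcs1. The first 4 are those with a promoter in the RefSeq table used here among the 7 members that passed the threshold in edgeR's comparisons of conditions over all 9 libraries, with or without the clone block, the others being Scd2, Fdps and Stard4. Hmgcs1 was chosen after the search as the 1 member, of the 26 with a promoter in that table, with letters of the classical sterol regulatory element. The sequences are RefSeq's on GRCm38.p6, the build also called mm10, and run 5′ to 3′ on the gene's own strand. The Hsd17b7 window is chr1:169969156-169969455 on the minus strand, and that of Sc5d is chr9:42264251-42264550, also on the minus strand. The Tm7sf2 window, on the minus strand too, is chr19:6067801-6068100. The Elovl6 window is chr3:129532136-129532435 on the plus strand, and that of Hmgcs1 is chr13:119690101-119690400, also on the plus strand. Capitals mark matches, on either strand, to TCACNCCAC (sterol regulatory element), CACGTG (E-box, a motif that SREBP can also bind), CCAAT (NF-Y), GGGCGG (GC box, Sp1) and GAGGAAG (a core letter run of PU.1 sites).
Hsd17b7: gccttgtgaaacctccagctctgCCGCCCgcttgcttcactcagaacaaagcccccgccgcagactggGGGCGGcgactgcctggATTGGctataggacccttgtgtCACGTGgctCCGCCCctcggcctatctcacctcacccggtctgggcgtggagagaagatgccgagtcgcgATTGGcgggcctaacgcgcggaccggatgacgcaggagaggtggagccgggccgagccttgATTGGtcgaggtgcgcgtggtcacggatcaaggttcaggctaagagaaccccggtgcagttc
Sc5d: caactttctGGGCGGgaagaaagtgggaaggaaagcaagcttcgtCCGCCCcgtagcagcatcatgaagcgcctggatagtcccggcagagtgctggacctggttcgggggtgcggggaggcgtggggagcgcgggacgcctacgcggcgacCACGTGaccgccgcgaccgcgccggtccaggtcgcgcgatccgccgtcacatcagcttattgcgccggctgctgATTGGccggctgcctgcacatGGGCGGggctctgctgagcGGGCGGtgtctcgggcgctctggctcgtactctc
Tm7sf2: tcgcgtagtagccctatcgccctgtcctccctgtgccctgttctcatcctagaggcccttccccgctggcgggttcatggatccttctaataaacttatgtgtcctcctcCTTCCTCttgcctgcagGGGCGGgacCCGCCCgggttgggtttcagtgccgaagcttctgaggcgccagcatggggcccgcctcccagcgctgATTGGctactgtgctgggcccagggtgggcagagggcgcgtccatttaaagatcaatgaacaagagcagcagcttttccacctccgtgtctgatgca
Elovl6: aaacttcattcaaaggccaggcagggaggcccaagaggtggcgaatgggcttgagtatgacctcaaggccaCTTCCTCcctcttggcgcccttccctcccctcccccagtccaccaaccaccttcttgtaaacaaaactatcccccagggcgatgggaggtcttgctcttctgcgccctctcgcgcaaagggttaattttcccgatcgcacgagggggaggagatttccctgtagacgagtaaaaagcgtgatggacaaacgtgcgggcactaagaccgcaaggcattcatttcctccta
Hmgcs1: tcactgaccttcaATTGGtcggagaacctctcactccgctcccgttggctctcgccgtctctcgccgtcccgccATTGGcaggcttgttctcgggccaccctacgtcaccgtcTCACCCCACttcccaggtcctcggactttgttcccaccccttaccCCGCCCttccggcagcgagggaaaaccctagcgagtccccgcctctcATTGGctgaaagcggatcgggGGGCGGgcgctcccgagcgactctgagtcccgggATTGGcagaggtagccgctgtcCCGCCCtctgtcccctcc
The Hsd17b7 window held 1 E-box, 3 NF-Y motifs and 3 GC boxes, and the Sc5d window held 1 E-box, 1 NF-Y motif and 4 GC boxes. The Tm7sf2 window held 1 NF-Y motif, 2 GC boxes and 1 set of PU.1 letters. The Hmgcs1 window held 1 sterol regulatory element, 4 NF-Y motifs and 3 GC boxes. In the Elovl6 window the only match among these motifs was 1 set of PU.1 letters, on the reverse strand. None of the printed matches overlap each other. Of the 34 members, 26 had a promoter in the table. Fdft1, Fdps, Sqle, Stard4, Scd1, Scd2, Fads1 and Abcg1 had none and were not searched. The table covers 27025 genes. That set takes in genes outside the 12004 tested here, whereas all 26 were tested. The shares for all genes below are therefore not shares of expressed genes. NF-Y letters were in 20 of the 26, and in 14 of the 15 mevalonate and sterol enzymes among them, while 41.1% of all genes in the table have them. GC boxes were in 22 of the 26, again including 14 of the 15 enzymes, with 38.2% for all genes. E-boxes were in 6 of the 26 (Abca1, Dhcr7, Hsd17b7, Insig1, Sc5d and Scap), with 8.09% for all genes. Letters of the sterol regulatory element were in 1 of the 26, with 1.44% for all genes. PU.1 letters were in 7 of the 26 (Acat2, Dhcr7, Elovl6, Fads2, Pmvk, Scap and Tm7sf2), with 15.4% for all genes. A match of letters is a description of the sequence and was not tied to binding.

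Levels were compared between genes per kilobase of gene model, as CPM per kb. Scd2, a stearoyl-CoA desaturase that puts the first double bond into saturated fatty acids, was the most abundant member in untreated cells, at 311 CPM per kb, against 99.3 CPM per kb for the next, Acly, which makes cytosolic acetyl-CoA from citrate. Abca1 was the lowest at 2.19 CPM per kb. With doxycycline the mean level of Scd2 was 106 CPM per kb and that of Acly 122 CPM per kb, so that their order was reversed. Srebf2 was at 104 CPM per kb with doxycycline and 83.0 CPM per kb untreated.

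With doxycycline, expression fell for 1 of the 34 members and rose for none against untreated cells, in edgeR's quasi-likelihood test with Benjamini-Hochberg adjustment over all genes at 0.05. Of all genes tested, 10.9% were called, 6.57% higher and 4.35% lower, so the count of members was below the background. The gene that fell was Scd2, with a log2 fold change of -1.55 ± 0.39 (SE). Taking the clones as a block, which pairs each library with the untreated library of its own clone, 4 members were called, against 24.8% of all genes, 13.0% higher and 11.7% lower. These were Hsd17b7 and Sc5d, enzymes of late cholesterol synthesis, which rose, and Scd2 and the elongase Elovl6, which fell. The median log2 fold change was 0.15 over the 34 members and 0.00 over all genes tested, with a median SE of 0.29 per member. In all 3 clones 14 members were higher with doxycycline and 5 lower, where 32.1% of all genes were higher and 31.8% lower. With library size alone as the scaling, which moves the median of all genes to 0.23, these counts were 20 and 3, where 35.7% of all genes were higher and 16.1% lower. Groups without overlap were found for 4 members that were higher (Tm7sf2, Hsd17b7, Acly and Fasn) and 3 that were lower (Pmvk, Scd2 and Fads1), where 20.4% of all genes were higher and 18.5% lower without overlap. An unadjusted p under 0.05 was found for 3 members, Scd2, Hsd17b7 and Pmvk, where 27.2% of all genes had one.

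**Figure D1:**
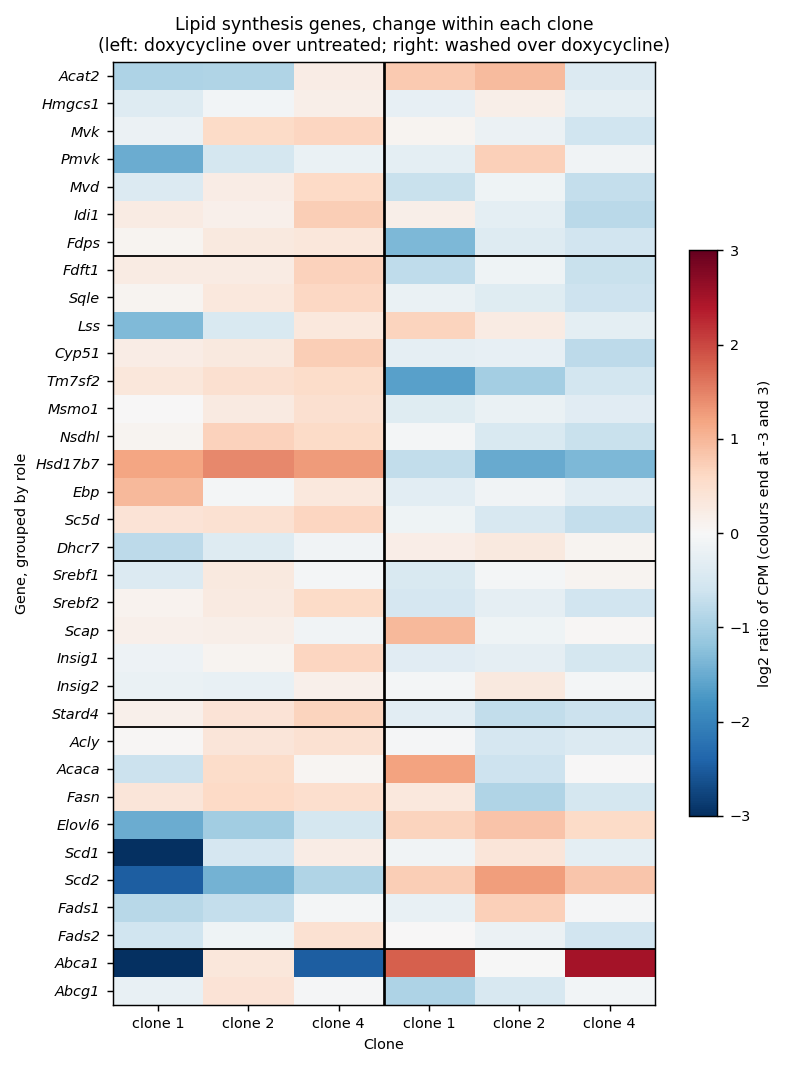
Log2 ratio of CPM within each clone for the 34 members, by role; the left block shows doxycycline over untreated and the right block washed over doxycycline, with 1 column per clone and colours that end at ±3. Most sterol enzymes are red in the left block and blue in the right one, Scd2 and Elovl6 have the opposite colours, and the deepest blue cells at the left are Scd1 and Abca1 in clone 1.

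The mevalonate segment (Acat2, Hmgcs1, Mvk, Pmvk, Mvd, Idi1 and Fdps) had no member past the threshold in doxycycline against untreated cells, with or without the clone block. Of all genes, 24.8% passed with the block and 10.9% without it. The segment's median log2 fold change was 0.13, and 4 of 7 values were positive. Pmvk, which phosphorylates mevalonate phosphate, had 26.0, 29.1 and 34.8 CPM with doxycycline, against 72.6, 41.7 and 40.0 CPM untreated. It was the 1 member of the segment whose groups did not overlap, all doxycycline libraries being lower, with a log2 fold change of -0.78 ± 0.33 and an adjusted p of 0.169 by edgeR. The untreated value of clone 1 was well above the other untreated values, and the log2 fold change was -0.35 without clone 1 and -0.45 without its untreated library alone, with adjusted p of 0.430 and 0.494.

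Fdps makes farnesyl diphosphate, from which both sterols and the lipid anchors of small GTPases derive. It had 74.3, 55.6 and 78.5 CPM with doxycycline, against 70.3, 45.6 and 62.3 CPM untreated, higher in all 3 clones although the groups overlapped. Idi1, the isomerase that supplies the starter unit of isoprenoid chains, was also higher in all 3 clones, at 19.7, 8.60 and 29.6 CPM with doxycycline, against 16.5, 7.68 and 17.8 CPM untreated. Neither passed the threshold, with adjusted p of 0.614 for Fdps and 0.622 for Idi1 by edgeR. The clones were mixed in direction for Acat2, which condenses acetyl-CoA, for Hmgcs1, which makes HMG-CoA, for Mvk, mevalonate kinase, and for Mvd, the decarboxylase. Their log2 fold changes ran from -0.39 for Acat2 to 0.38 for Mvk, and Hmgcs1 averaged 92.3 ± 30.5 CPM with doxycycline and 97.3 ± 23.3 CPM untreated (SD, n = 3 each).

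Among the 11 enzymes from farnesyl diphosphate to cholesterol, 9 had a positive log2 fold change in doxycycline against untreated cells, with a median of 0.43. No member of this group passed the threshold without the clone block, where 10.9% of all genes did. An unadjusted p under 0.05 was found for 1, where 27.2% of all genes had one. DESeq2 and limma voom also called 0, where they called 17.8% and 9.48% of all genes. With the block 2 passed, where 24.8% of all genes did. Within clones, 8 of the 11 were higher with doxycycline in all 3 clones, where 32.1% of all genes tested were. This count was 7 with RLE size factors, where 31.1% of all genes were higher in this way, and 8 with library size alone as the scaling, where 35.7% were. These 8 were Fdft1, Sqle, Cyp51, Tm7sf2, Msmo1, Nsdhl, Hsd17b7 and Sc5d under the scaling by TMM used throughout. In clone 1 some of them hardly differed, at 1.001 times the untreated level for Msmo1, 1.059 for Sqle and 1.065 for Nsdhl. Their ratios in that clone reached 2.27, for Hsd17b7. Summed over the 11 enzymes, the level was 1087, 891 and 1567 CPM with doxycycline, against 1063, 755 and 1042 CPM untreated.

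Hsd17b7, the ketoreductase that works on sterol intermediates of lanosterol demethylation, had the highest log2 fold change of the 34 members. Its level was 81.2, 55.2 and 132 CPM with doxycycline, against 35.8, 20.1 and 54.4 CPM untreated. The groups did not overlap, and the doxycycline level was 2.27, 2.74 and 2.43 times the untreated level of the same clone. The log2 fold change was 1.28 ± 0.48 with an adjusted p of 0.121 by edgeR. With the clone block it was 1.31 ± 0.17 with an adjusted p of 0.00227. Hsd17b7 (Entrez gene 15490, chromosome 1, 169949535 to 169969242 on GRCm38) is the gene whose promoter above holds an E-box at -143 from the start. With the block its call held without clone 1, without clone 2 (adjusted p 0.0405) and without untreated clone 1, and was lost without clone 4 (0.0561).

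Sc5d introduces a double bond into the sterol ring near the end of the route. Its level was 87.7, 75.5 and 129 CPM with doxycycline, against 66.0, 54.7 and 82.6 CPM untreated. Each clone was higher with doxycycline, at 1.33, 1.38 and 1.56 times its untreated level, but the groups overlapped, and clone 4 was the highest clone in both. Its log2 fold change was 0.52 ± 0.26, with an adjusted p of 0.226 by edgeR and 0.0365 with the clone block. The gene is Entrez gene 235293, chromosome 9, 42251592 to 42264300, and the E-box of its printed promoter lies at -98. The call of Sc5d with the block was lost without clone 2 (adjusted p 0.183), without clone 4 (0.3025) and without untreated clone 1 (0.09185).

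Tm7sf2, a sterol reductase, was low in all libraries, with 9.71, 9.66 and 9.98 CPM with doxycycline, against 7.70, 6.93 and 6.79 CPM untreated. The groups did not overlap, yet the adjusted p was 0.385 by edgeR and 0.275 with the clone block. Squalene epoxidase Sqle had 219, 197 and 314 CPM with doxycycline, against 207, 158 and 204 CPM untreated. Cyp51, the lanosterol demethylase, had 265, 212 and 403 CPM with doxycycline, against 227, 173 and 242 CPM untreated. In both genes the doxycycline value of clone 4 was the highest of the 9 libraries, and neither passed the threshold, with adjusted p of 0.337 for Sqle and 0.291 for Cyp51 by edgeR. The clone block gave 0.0845 for Cyp51 and 0.0737 for Nsdhl, a sterol dehydrogenase at 52.1, 42.6 and 73.4 CPM with doxycycline, against 49.0, 26.2 and 49.5 CPM untreated.

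The remaining sterol enzymes did not pass either. Fdft1, squalene synthase, averaged 58.1 ± 16.7 CPM with doxycycline and 43.3 ± 5.73 CPM untreated, and Msmo1, a sterol methyl oxidase, 154 ± 41.7 CPM with doxycycline and 129 ± 33.2 CPM untreated (SD, n = 3 each). Lss, which closes the sterol rings, and Dhcr7, which makes cholesterol in the last step of 1 branch, had negative log2 fold changes of -0.45 ± 0.29 and -0.40 ± 0.24. Dhcr7 was lower with doxycycline in all 3 clones by TMM, at 66.8, 63.2 and 102 CPM, against 115, 83.2 and 109 CPM untreated, but not in all 3 with library size alone as the scaling. Ebp, a sterol isomerase, was at 41.5, 20.4 and 26.5 CPM with doxycycline, against 21.3, 21.2 and 21.1 CPM untreated. It was at 1.95, 0.963 and 1.25 times the untreated level of the same clone, highest in clone 1. The log2 fold change of Ebp was 0.48, and 0.15 without clone 1.

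**Figure D2:**
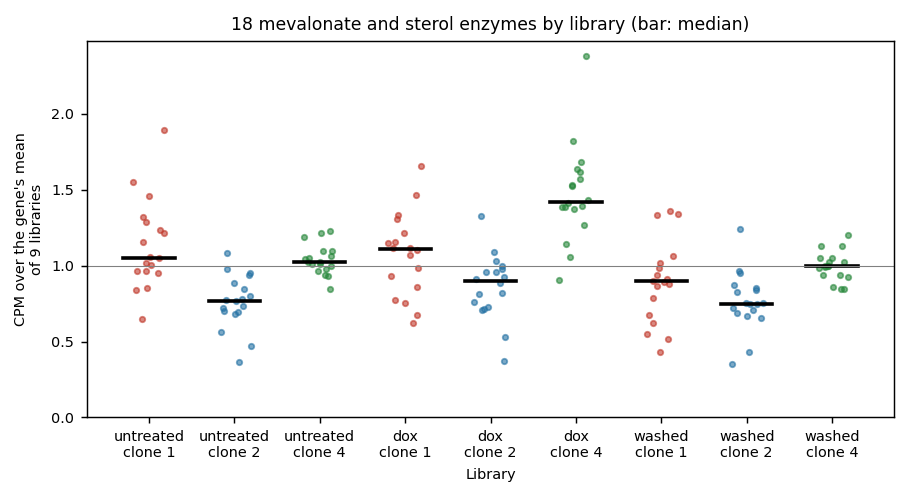
CPM of the 18 mevalonate and sterol enzymes in each library, each gene divided by its mean over the 9 libraries (points) with the median over genes (bar). In untreated, doxycycline and washed libraries the median is lowest in clone 2, and the highest median, 1.42, is that of doxycycline clone 4.

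Summed over the 18 mevalonate and sterol enzymes, the level was 1421, 1182 and 2045 CPM with doxycycline, against 1510, 1035 and 1417 CPM untreated. The sum was higher with doxycycline in clones 2 and 4 and lower in clone 1. Divided by each gene's mean over the 9 libraries, the median enzyme stood at 1.11, 0.900 and 1.42 with doxycycline, against 1.05, 0.770 and 1.02 untreated. Clone 4 had the widest gap between its doxycycline and untreated libraries.

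The SREBP control genes did not pass the threshold in doxycycline against untreated cells. Srebf2 was higher in all 3 clones, with 388, 506 and 532 CPM with doxycycline, against 359.7, 421 and 357 CPM untreated, a log2 fold change of 0.33 ± 0.21 and an adjusted p of 0.363 by edgeR. Srebf1 had 202, 329 and 282 CPM with doxycycline, against 269, 270.1 and 295 CPM untreated, with no shared direction. Insig1, itself a target of SREBP, averaged 120.2 ± 15.2 CPM with doxycycline and 107 ± 27.0 CPM untreated (SD, n = 3 each). Insig2 and Scap had log2 fold changes of -0.09 ± 0.18 and 0.07 ± 0.32, both within 1 SE of 0. Stard4, which carries cholesterol between membranes, had 133, 111 and 153 CPM with doxycycline, against 119, 83.5 and 96.1 CPM untreated, and was higher in all 3 clones. Its adjusted p was 0.282 by edgeR and 0.0738 with the clone block.

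The fatty acid enzymes did not share a direction. Acly and Fasn, which make acetyl-CoA and palmitate, had higher values with doxycycline in all 3 clones, and Scd2, Elovl6 and Fads1, which desaturate or lengthen fatty acids, had lower ones. The median log2 fold change of the 8 genes was -0.31, with 2 positive and 6 negative values. Fasn had 617, 581 and 787 CPM with doxycycline, against 482, 383 and 558 CPM untreated. Acly had 462, 536 and 616 CPM with doxycycline, against 454, 417 and 448 CPM untreated. For both genes the groups did not overlap, though narrowly for Acly, and the adjusted p was 0.365 for Fasn and 0.332 for Acly by edgeR. Acaca, which makes malonyl-CoA, had a log2 fold change of -0.02 ± 0.39.

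Scd2 (Entrez gene 20250, chromosome 19, 44293676 to 44306864) had 363, 588 and 787 CPM with doxycycline, against 2029.6, 1573 and 1478 CPM untreated. Every doxycycline library was below every untreated one, at 0.179, 0.374 and 0.532 times the untreated level of the same clone, and the fall was deepest in clone 1. The adjusted p was 0.0346 by edgeR and 0.0128 with the clone block. The call held without clone 1, with a log2 fold change of -1.15 and an adjusted p of 0.0329 by edgeR. It was lost without clone 2 (adjusted p 0.165), without clone 4 (0.243) and without untreated clone 1 (0.120), at log2 fold changes of -1.61, -1.93 and -1.40. In the fits without clone 2 or clone 4, 159 and 0 genes of all those tested were called. With the block, leaving out clone 2 or clone 4 also ended the Scd2 call, at adjusted p of 0.0807 and 0.0651.

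**Figure D3:**
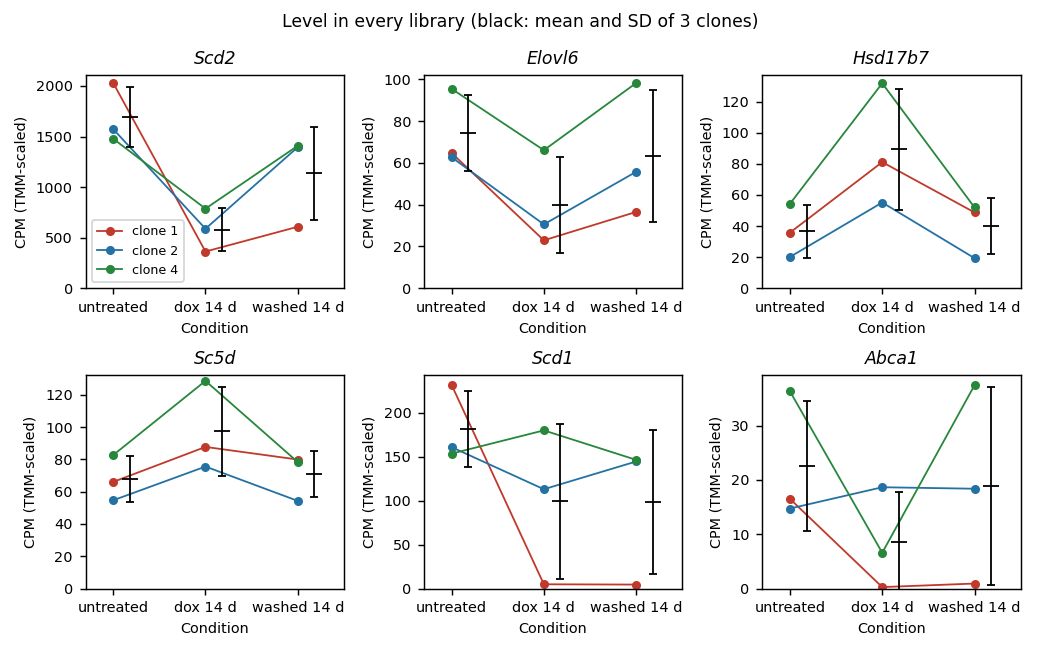
CPM of Scd2, Elovl6, Hsd17b7, Sc5d, Scd1 and Abca1 in the 9 libraries, grouped as untreated, doxycycline and washed, with a coloured line per clone and the mean ± SD in black (n = 3 clones). Scd2 is lowest and Hsd17b7 highest with doxycycline in each clone, whereas Scd1 and Abca1 in clone 1 drop with doxycycline and are still low after washing.

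Elovl6, which lengthens palmitate to stearate, had 22.9, 30.6 and 66.1 CPM with doxycycline, against 64.8, 62.7 and 95.5 CPM untreated. The level was 0.354, 0.487 and 0.692 times the untreated level of the same clone, and clone 4 was highest in both groups, and the groups overlapped. The log2 fold change was -0.90 ± 0.45 with an adjusted p of 0.235 by edgeR, and -1.02 ± 0.20 with an adjusted p of 0.00962 with the clone block. Leaving out clone 2 or clone 4 ended the block call of Elovl6, at adjusted p of 0.0850 and 0.0524. Fads1, a desaturase of polyunsaturated fatty acids, had 133, 128 and 176 CPM with doxycycline, against 235, 210.3 and 182 CPM untreated. These groups did not overlap, though clone 4 differed little, and the adjusted p was 0.208 by edgeR and 0.134 with the clone block. Its partner Fads2, also on chromosome 19, had a log2 fold change of -0.10 ± 0.23 and mixed directions.

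Scd1 and Abca1 had their lowest values in the doxycycline and washed libraries of clone 1. Scd1 (Entrez gene 20249, chromosome 19, 44394450 to 44407709), a paralog of Scd2 on the same chromosome, had 4.85, 113 and 180.2 CPM with doxycycline, against 232, 161 and 154 CPM untreated. Clone 1 thus kept 55 counts of Scd1 with doxycycline, against 1265 counts untreated, a ratio of 0.0209 after scaling (exact 95% interval 0.0157 to 0.0274, counting error only). Clones 2 and 4 went in opposite directions at 0.702 and 1.17 times the untreated level. Over the 3 clones the log2 fold change was -0.88 ± 1.17, with an adjusted p of 0.675 by edgeR. Without clone 1 it was -0.10. Near-identical stretches of Scd1 and Scd2 may share reads, since how reads with several matches were counted is not given in the sources used here.

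Abca1, the exporter that loads cholesterol onto lipoprotein particles, had 0.265, 18.7 and 6.59 CPM with doxycycline, against 16.5, 14.7 and 36.3 CPM untreated. In clone 1 this was 3 counts with doxycycline and 90 counts untreated, a ratio of 0.0160 (exact 95% interval 0.00324 to 0.0484). Clone 4 was also lower with doxycycline and clone 2 was higher, and the log2 fold change of -1.43 ± 1.23 had an adjusted p of 0.497 by edgeR. Without clone 1 the value for Abca1 was -1.03, with an adjusted p of 0.368. Abcg1, the second exporter, had 34.4, 59.8 and 43.5 CPM with doxycycline, against 40.0, 45.3 and 44.5 CPM untreated, with mixed directions.

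In clone 1 both Scd1 and Abca1 stayed low after washing. Scd1 had 4.51, 145 and 147 CPM in washed libraries, so that washed clone 1 held 49 counts and a ratio to untreated of 0.0194 (exact 95% interval 0.0143 to 0.0258). Abca1 had 0.920, 18.4 and 37.4 CPM in washed libraries, and the ratio in clone 1 was 0.0558 (exact 95% interval 0.0259 to 0.107). The washed libraries of clones 2 and 4 were at 0.898 and 0.954 times the untreated level for Scd1, and 1.25 and 1.03 times for Abca1. In clone 1, 54 of all genes tested (0.450%) had at least 10 CPM untreated and were at least 10-fold lower in both other conditions, and Scd1 and Abca1 were the 2 members among them. No gene met this in clone 2 or clone 4. The fold and level of this count were chosen after the values were seen, and each clone has 1 library per condition, so that the pattern has no replicate check.

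**Figure D4:**
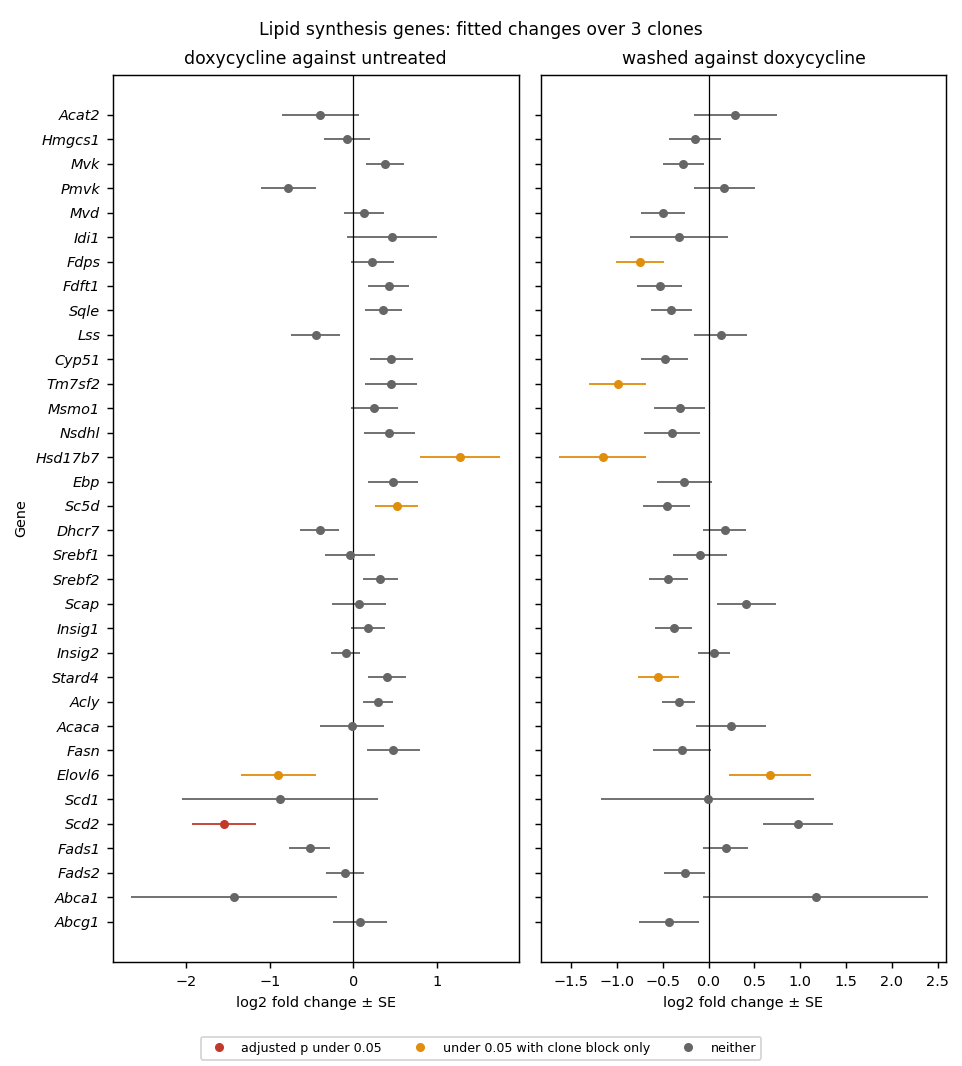
Log2 fold change ± SE from edgeR for the 34 members, doxycycline over untreated at the left and washed over doxycycline at the right (n = 3 libraries per group); red points have an adjusted p under 0.05, orange points only with the clone block, grey points neither. Scd2 is the 1 red point, at -1.55, and the widest error bars are those of Scd1 and Abca1.

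After washing, 0 of the 34 members passed the threshold against doxycycline cells in edgeR's test, where 9.66% of all genes did (3.64% higher and 6.02% lower), and 5 had an unadjusted p under 0.05, where 26.0% of all genes had one. DESeq2 and limma voom each called 1, the sterol reductase Tm7sf2, which was lower, where DESeq2 called 16.4% and limma voom 9.27% of all genes. With the clone block edgeR called 5 members, against 22.9% of all genes (10.4% higher and 12.4% lower), with Fdps, Tm7sf2, Hsd17b7 and Stard4 lower and Elovl6 higher. The median log2 fold change was -0.29 over the members and 0.04 over all genes tested. Within clones, 16 of the 34 members were lower after washing in all 3 clones and 3 were higher, where 27.5% of all genes were lower and 28.1% higher. The comparison uses the same doxycycline libraries as the one above, and its values are not independent of it.

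Hsd17b7 was at 48.8, 19.4 and 52.0 CPM in washed libraries, against 81.2, 55.2 and 132 CPM with doxycycline. No washed library reached the lowest doxycycline library, and the log2 fold change was -1.16 ± 0.48 with an adjusted p of 0.163 by edgeR and 0.0033 with the clone block. Tm7sf2 was at 3.13, 4.78 and 6.85 CPM after washing, against 9.71, 9.66 and 9.98 CPM with doxycycline, and its groups did not overlap either. Tm7sf2 thus had a log2 fold change of -0.995 ± 0.31 with an adjusted p of 0.0802 by edgeR and 0.0378 with the clone block. Without washed clone 1, the lowest value, it was -0.75 with an adjusted p of 0.109, and 0.0653 with the clone block, which ends the call. With the block, the Hsd17b7 and Tm7sf2 calls were also lost without clone 2, at adjusted p of 0.0624 and 0.201, and without clone 4, at 0.0866 and 0.134, and that of Tm7sf2 without clone 1, at 0.0577.

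Fdps had 29.2, 42.6 and 52.4 CPM in washed libraries, against 74.3, 55.6 and 78.5 CPM with doxycycline. All washed values lay below all doxycycline values, with a log2 fold change of -0.75 ± 0.26 and an adjusted p of 0.103 by edgeR and 0.0464 with the clone block. Stard4 had 107, 66.4 and 97.5 CPM after washing, against 133, 111 and 153 CPM with doxycycline, again without overlap. Its log2 fold change was -0.55 ± 0.23, with an adjusted p of 0.166 by edgeR and 0.0277 with the clone block. Without washed clone 1, the log2 fold changes were -0.55 for Fdps and -0.69 for Stard4, with adjusted p of 0.154 and 0.0846. The same libraries fitted with the block gave -0.45 for Fdps and -0.63 for Stard4, with adjusted p of 0.0357 and 0.0160, where 31.2% of all genes were called. Both block calls were lost without clone 2, at 0.113 for Fdps and 0.221 for Stard4, and without clone 4, at 0.200 for Fdps and 0.253 for Stard4.

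Mvd and Insig1 were the other members without overlap. Mvd had 39.7, 60.8 and 55.2 CPM after washing, against 63.1, 66.0 and 90.5 CPM with doxycycline, with an adjusted p of 0.224 by edgeR and 0.17 with the clone block. Insig1 had 98.1, 86.0 and 92.9 CPM after washing, against 123, 104 and 134 CPM with doxycycline, with an adjusted p of 0.272 by edgeR and 0.141 with the clone block. Groups without overlap were thus found for 6 members that were lower and 0 that were higher, where 14.5% of all genes were lower and 11.8% higher without overlap. Sc5d, at 79.9, 54.3 and 78.3 CPM after washing, against 87.7, 75.5 and 129 CPM with doxycycline, had an adjusted p of 0.0606 with the clone block. Of the 11 sterol enzymes, 9 were lower after washing in all 3 clones under each of the 3 scalings, where 27.5% of all genes were by TMM, 26.6% by RLE and 27.2% by library size alone, and Dhcr7 was higher in all 3 clones by TMM and RLE but not by library size alone.

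Scd2 was at 608, 1395 and 1409 CPM after washing, against 363, 588 and 787 CPM with doxycycline. It was higher in each clone, at 1.68, 2.37 and 1.79 times the doxycycline level, with clone 1 gaining least in CPM. This log2 fold change was 0.97 ± 0.38 with an adjusted p of 0.146 by edgeR and 0.0762 with the clone block. Without the washed library of clone 1 it was 1.28 with an adjusted p of 0.0260, and without clone 1 altogether 1.03 with 0.0423, fits in which 14.8% and 8.80% of all genes were called. Elovl6 was at 36.5, 55.8 and 98.3 CPM after washing, against 22.9, 30.6 and 66.1 CPM with doxycycline, higher in each clone. Its log2 fold change was 0.67 ± 0.45, with an adjusted p of 0.387 by edgeR and 0.0379 with the clone block. Fits with the block but lacking clone 2 or clone 4 did not call Elovl6, at adjusted p of 0.2395 and 0.137.

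Fasn divided the clones after washing. It had 763, 311 and 544 CPM in washed libraries, against 617, 581 and 787 CPM with doxycycline, so clone 1 was higher and clones 2 and 4 were lower. Scap had 268, 103 and 131 CPM after washing, against 137, 113 and 127 CPM with doxycycline, and the value of washed clone 1 was the highest of the 9 libraries. Srebf1 showed the reverse in that clone, at 147, 315 and 298 CPM after washing, against 202, 329 and 282 CPM with doxycycline. None of the 3 passed the threshold, with adjusted p of 0.608 for Fasn, 0.471 for Scap and 0.881 for Srebf1 by edgeR. Without clone 1 the log2 fold changes were -0.68 for Fasn, -0.04 for Scap and 0.01 for Srebf1, against -0.29, 0.41 and -0.09 with it.

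Against untreated cells, washed cells showed 0 called members and 0 called genes among the 12004 tested, by edgeR with or without the clone block, by DESeq2 and by limma voom. An unadjusted p under 0.05 was found for 0 members and for 0.317% of all genes by edgeR. The median log2 fold change of the members was -0.12, against 0.02 for all genes tested. In all 3 clones 7 members were lower and 0 higher, where 8.89% of all genes were lower and 9.21% higher. These 7 were Fdps, Sqle, Dhcr7, Scd1, Scd2, Fads2 and Abcg1. Hsd17b7 stood at 1.36, 0.961 and 0.957 times the untreated level of the same clone and Sc5d at 1.21, 0.993 and 0.948 times. For these 2 genes the log2 differences were 0.12 ± 0.47 and 0.06 ± 0.26, which do not show that the levels are equal.

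Scd1 and Scd2 were the 2 members with no overlap between washed and untreated libraries, where 1.05% of all genes were lower and 1.31% higher without overlap. Scd2 had 608, 1395 and 1409 CPM after washing, against 2029.6, 1573 and 1478 CPM untreated. Clone 1 was at 0.299 times its untreated level and clones 2 and 4 at 0.886 and 0.953 times. The log2 fold change was -0.57 ± 0.38 with an unadjusted p of 0.163 and an adjusted p of 1 by edgeR. It was -0.12 without clone 1 and -0.27 without its washed library alone, again with adjusted p of 1. For Scd1 it was -0.89, and -0.11 without clone 1. Pmvk and Fdps in clone 1 were likewise far below untreated after washing, at 0.290 and 0.415 times. These ratios were 1.15 and 0.935 in clone 2 and 0.810 and 0.841 in clone 4. Without clone 1 the log2 fold changes were -0.03 for Pmvk and -0.18 for Fdps, against -0.61 and -0.52 with it.

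Clone 2 had the lowest level of many sterol enzymes. Clone 2 was the lowest clone in untreated, doxycycline and washed cells alike for 11 of the 34 members and 8 of the 18 mevalonate and sterol enzymes, where 19.1% of all genes tested had this order. With library size alone as the scaling these were 9 members and 8 enzymes, where 8.41% of all genes had this order. The order was not particular to the sterol enzymes. By TMM it was also found for 7 of 15 tested genes of fatty acid supply, activation and elongation and 5 of 9 of isoprenoid branches. Over all the wider lists described below it was found for 15 of 65 tested genes. Hsd17b7 had 20.1 CPM in untreated clone 2, against 35.8 CPM in clone 1 and 54.4 CPM in clone 4, and Idi1 7.68 CPM in clone 2, against 16.5 CPM in clone 1 and 17.8 CPM in clone 4. In the edgeR test of clone across the 9 libraries 0 members and 0 genes passed after adjustment. An unadjusted p under 0.05 was found for 15 members, where 37.5% of all genes had one. The smallest adjusted p among the members was 0.0505, for Hsd17b7, and Idi1 and Elovl6 followed at 0.0512 and 0.0533. Over all genes tested the smallest was also 0.0505, so such values are not particular to the members.

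That threshold was crossed under other settings. With RLE size factors 1 member passed the test of clone, Hsd17b7 at 0.0478, with 0.616% of all genes. Library size alone gave 5 members (Acat2, Idi1, Hsd17b7, Elovl6 and Abca1), with 9.50% of all genes. Leaving out the filter on low counts gave 6 (Acat2, Idi1, Msmo1, Nsdhl, Hsd17b7 and Elovl6), with 9.46% of all genes. A test of whether the clones differ in doxycycline libraries against the pool of untreated and washed libraries had 3 residual degrees of freedom and gave 0 members and 0 genes after adjustment by edgeR. It pools untreated and washed libraries within a clone, so a gene whose washed and untreated values differ within a clone, such as Scd1 or Abca1 in clone 1, adds that difference to its residual spread, and for such genes the test says little. Unadjusted p under 0.05 were those of Acat2, Lss and Acaca, where 3.39% of all genes had one. Acat2 had 23.6, 11.4 and 42.6 CPM with doxycycline and 41.0, 22.1 and 32.2 CPM after washing, against 44.6, 21.4 and 36.4 CPM untreated, being lower with doxycycline in clones 1 and 2 and higher in clone 4.

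The number of members called depended on which clones were fitted. With the clone block and without clone 1, edgeR called 13 members in doxycycline against untreated cells, where 33.9% of all genes were called. Those higher were Mvk, Sqle, Cyp51, Msmo1, Nsdhl, Hsd17b7, Sc5d, Srebf2, Stard4, Acly and Fasn, 11 in all, and those lower were Elovl6 and Scd2, where 17.7% of all genes were higher and 16.2% lower. In washed against doxycycline cells the same fit called 12 members, against 35.6% of all genes, with 10 lower and 2 higher, where 18.6% of all genes were lower and 17.0% higher. Without clone 2 the fit with the block called 1 member in doxycycline against untreated cells, Hsd17b7, and without clone 4 it called 0, where 5.16% and 2.98% of all genes were called. These fits rest on 2 clones, and clone 1 was set aside after its values were seen.

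A wider set of 70 genes in 7 lists, from sterol sensing to fatty acid oxidation, gave the surroundings of these members. Of the 65 that passed the filter on low counts, 5 rose and 4 fell with doxycycline against untreated cells beside the 10.9% of all genes that were called. With the clone block 13 rose and 9 fell, where 13.0% of all genes were called higher and 11.7% lower. Their median log2 fold change was 0.05. All 9 calls held with the block. Without clone 4 none of the 9 was called (0 of all genes were), and without clone 2 or without untreated clone 1 only Acsl3 was, at adjusted p of 0.0456 and 0.0379. Without clone 1 the calls of Cpt2 (0.102), Erlin2 (0.1235) and Nceh1 (0.190) were lost.

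Of the 9 calls, 7 were in lists of fatty acid supply, glycerolipid synthesis and fatty acid oxidation. These lists held 15, 9 and 9 of the 65 tested genes. Over all genes tested, the shares to set beside the counts of each list are 6.57% called higher and 4.35% lower. Of 15 tested genes of fatty acid supply, activation and elongation, 2 rose and 1 fell. The acyl-CoA synthetases, which activate fatty acids for further use, moved in both directions: Acsl1 had 155, 87.3 and 107 CPM with doxycycline, against 50.8, 41.6 and 51.6 CPM untreated (log2 fold change 1.28 ± 0.30, adjusted p 0.0272 by edgeR). Acsl4, which favours arachidonic acid, had 101, 155 and 180.0 CPM with doxycycline, against 65.3, 57.8 and 68.7 CPM untreated (1.19 ± 0.24, adjusted p 0.0163). Acsl3 fell, with 17.1, 12.8 and 24.7 CPM with doxycycline, against 66.4, 48.6 and 61.4 CPM untreated (-1.69 ± 0.27, adjusted p 0.00664). In each of these 3 genes the groups did not overlap, and the washed levels were 76.7, 37.4 and 49.3 CPM for Acsl1, 68.6, 46.4 and 64.4 CPM for Acsl4 and 64.1, 43.5 and 56.4 CPM for Acsl3.

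Among 9 tested genes of glycerolipid synthesis and storage, 2 rose and 0 fell. Both were diacylglycerol acyltransferases, the enzymes of the last step to triglyceride. Dgat1 had 54.3, 98.6 and 71.8 CPM with doxycycline, against 28.2, 31.0 and 35.1 CPM untreated (1.25 ± 0.24, adjusted p 0.0136 by edgeR). Dgat2 had 152, 60.5 and 93.2 CPM with doxycycline, against 28.1, 35.1 and 36.8 CPM untreated (1.61 ± 0.32, adjusted p 0.0151), with the highest value in clone 1. Gpam, the first acyltransferase of that route, fell with the clone block, at an adjusted p of 0.0335 and a log2 fold change of -1.17 ± 0.33.

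Of 9 tested genes of fatty acid oxidation, 2 fell and 0 rose. Cpt2, the inner mitochondrial carnitine transferase, averaged 21.9 ± 1.64 CPM with doxycycline and 35.8 ± 1.65 CPM untreated (SD, n = 3 each), and Acadl, an acyl-CoA dehydrogenase, 71.7 ± 2.76 CPM with doxycycline and 151 ± 25.5 CPM untreated. Their adjusted p were 0.0208 for Cpt2 and 0.0109 for Acadl by edgeR. Of 7 genes of SREBP cleavage and sterol sensing, Erlin2, of the machinery that degrades Insig proteins and other membrane proteins, fell (-0.61 ± 0.16, adjusted p 0.0378). Of 11 tested genes of sterol uptake, storage and traffic, Nceh1, a hydrolase of cholesteryl esters, rose (1.02 ± 0.27, adjusted p 0.0426). The lists of liver X receptors and targets (5 tested) and of isoprenoid branches (9 tested) had 0 called genes without the block. In each, 1 gene had an unadjusted p under 0.05, where 27.2% of all genes had one. With the block 1 gene was called in each, where 24.8% of all genes were. These were Rxra, the partner of the liver X receptors, higher at 33.9, 84.8 and 55.0 CPM with doxycycline, against 9.72, 23.0 and 15.8 CPM untreated (adjusted p 0.0561, 0.000813 with the block), and Coq2, which was lower.

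**Figure D5:**
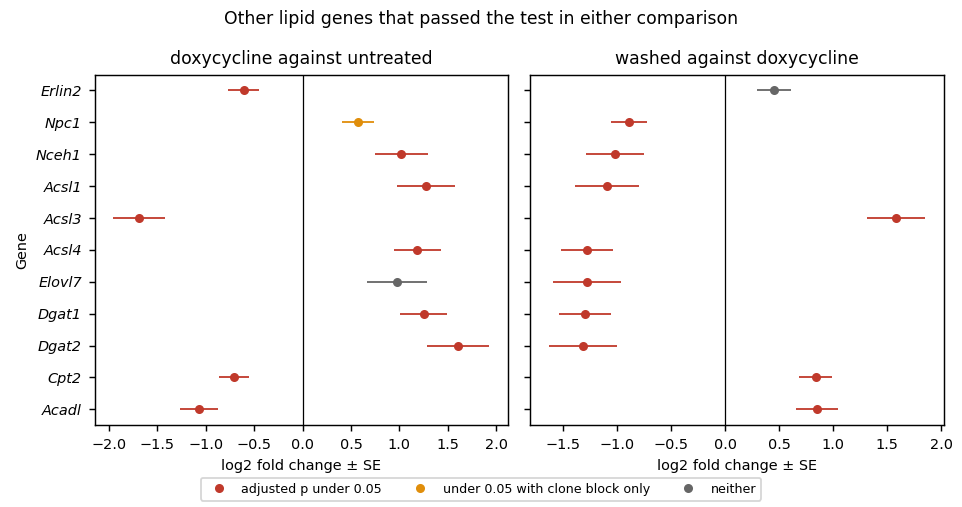
Log2 fold change ± SE from edgeR for the 11 wider lipid genes called in either comparison, doxycycline over untreated and washed over doxycycline (n = 3 libraries per group). Acsl3, Cpt2, Acadl and Erlin2 lie below 0 in the first comparison and above 0 in the second, and the other 7 lie above and then below 0.

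After washing, 7 of the 65 genes fell and 3 rose against doxycycline cells beside 9.66% of all genes. With the clone block 13 fell and 7 rose, where 12.4% of all genes were called lower and 10.4% higher. Those that fell were Npc1, Nceh1, Acsl1, Acsl4, Elovl7, Dgat1 and Dgat2, and those that rose were Acsl3, Cpt2 and Acadl. All 10 calls held with the block and without washed clone 1, and none of the 10 was called without clone 2 or without clone 4. Without clone 1 the 4 that were called were Acsl1, Acsl4, Dgat1 and Dgat2, and without untreated clone 1 the calls of Nceh1, Acsl1, Dgat2 and Elovl7 were lost, at adjusted p of 0.0807, 0.0853, 0.0559 and 0.0619. Npc1, which moves cholesterol out of lysosomes, had 47.9, 54.3 and 59.6 CPM after washing, against 96.3, 116 and 88.0 CPM with doxycycline (-0.89 ± 0.17, adjusted p 0.0137 by edgeR). Elovl7, an elongase of saturated fatty acids, had 11.0, 19.6 and 20.2 CPM after washing, against 55.2, 29.9 and 37.6 CPM with doxycycline (-1.28 ± 0.31, adjusted p 0.0349). Against untreated cells 0 of the 65 were called in washed cells, and 0 had an unadjusted p under 0.05 by edgeR.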

How the data were processed

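Per the labels' protocols, RNA was extracted from sorted cells on the day of lysis (QIAGEN RNeasy), and libraries were made by Illumina's standard protocol. The submitters' processing notes name the mm10 build, edgeR 3.8.2, limma 3.22.0, CASAVA 1.8.2 and featureCounts. The aligner, the annotation, how strand was handled and how multi-mapped reads were counted were not given in the sources used here. Reads of overlapping antisense genes therefore cannot be told apart. Per the file headers, each library's deposited file holds whole-number counts per Entrez gene, with no normalization, beside a gene length in bases. Symbols and coordinates came from RefSeq's GRCm38 table, where 25275 of 27179 entries matched.

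The 34 members and the 7 wider lists were chosen with earlier results of these data known. Genes were filtered with filterByExpr (12004 left) and scaled by TMM. The TMM factor was 0.737 for untreated clone 1 and 0.916 to 1.18 for the others. edgeR 4.0.16 in R 4.3.3 fitted quasi-likelihood models with group means to the 9 libraries, and p-values were adjusted over all genes tested by Benjamini-Hochberg at 0.05. SE was taken as the size of the log2 fold change over the root of F. CPM are TMM-scaled, and CPM per kb divides by the deposited gene length. Members called in the first 2 comparisons, with or without clone as a block, or without overlap between groups, are named with their value in every library, and of the wider lists the called genes, at most 4 per list and comparison. Naming the genes called without clone 1, all clone results and the clone 1 pattern of Scd1 and Abca1 came after their values were seen.

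The clone number pairs the libraries, since the same number is the same clonal line. After subtracting group means, log2(CPM + 1) of same-clone libraries correlated at 0.303 to 0.709 (9 pairs) and that of other libraries at -0.703 to 0.318. The closest pair of libraries, untreated and washed clone 4, differed beyond sampling noise (chi-square 3.47 per degree of freedom), so each counts once. The most unlike pairs of all were same-clone pairs, untreated clone 1 with doxycycline clone 1 (400) and with washed clone 1 (357). This measure takes in the entry that held 22.0% of the counts of untreated clone 1. That library is the baseline of every clone 1 ratio to untreated. On simulated counts with 200 of 12004 genes changed, edgeR recovered 7% of 2-fold and 70% of 4-fold changes for doxycycline against untreated with 4 false calls, and 3% and 74% with 4 for washed against doxycycline. Alternatives were other scalings, filters, tools (DESeq2 1.42.0, limma 3.58.1), the clone block, the 2 groups alone and leaving out libraries. Fits without washed clone 1, and with the block and without a clone, were added after the data were seen. Figures were drawn with matplotlib 3.10.9.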

Additional observations from a re-analysis of the deposited data

How the results depend on the processing

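In counts simulated at the depth and spread of these libraries few 2-fold changes were recovered, so a member that was not called may still have changed. Depth and spread were not varied apart. The simulated libraries shared no clone differences, held fewer changed genes than were called here, and were fitted without the block. The recovered shares are therefore not the power of the comparisons reported here. For doxycycline against untreated cells, 1311 genes and 1 member were called; the member count was the same with RLE size factors, library size alone, both other filters, DESeq2, limma voom and the 2 groups alone. DESeq2 called 2138 genes and the 2 groups alone 2026. Pairing by the clone block gave 2976 genes and 4 members. Leaving out 1 clone gave 0 to 967 genes and 0 to 1 members. Without untreated clone 1 there were 347 genes and 0 members, and with the block as well 2414 genes and 3 members. Without washed clone 1 there were 2258 genes, and with the block as well 4732 genes and 10 members. The block without clone 1, 2 or 4 gave 4117, 623 and 360 genes and 13, 1 and 0 members. Library size alone gave 796 higher and 257 lower genes, where TMM gave 789 and 522, and moved the median of all genes to 0.23 on the log2 scale.

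For washed against doxycycline cells, 1160 genes and 0 members were called. Library size alone gave 648 genes, DESeq2 1967 genes and 1 member, limma voom 1 member and the 2 groups alone 324 genes. The clone block, which pairs libraries by clone, gave 2744 genes and 5 members. Leaving out 1 clone gave 4 to 1069 genes and 0 to 1 members. Without untreated clone 1 there were 717 genes, and with the block as well 3561 genes and 8 members. Without washed clone 1 there were 1814 genes and 1 member, and with the block as well 3820 genes and 7 members. The block without clone 1, 2 or 4 gave 4325, 421 and 320 genes, and 12 members without clone 1. For washed against untreated cells the count of genes and of members was 0 in every alternative run, the block included, and in edgeR 38 genes and 0 members had an unadjusted p under 0.05. The test of clone called 1 member with RLE size factors, 5 with library size alone and 6 without the filter, against 0 in the other settings run. The cause of these differences was not tested. Over 612 values per comparison (34 members in 18 alternatives), the sign changed in 29, 33 and 83, for doxycycline against untreated, washed against doxycycline and washed against untreated in that order, none of them called.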
